A study of Mus musculus with 58 samples.

Results

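The retina of diabetic mice was compared across the change from night to day, in 10 libraries of the 58 of the series: 5 from retinas taken at ZT1 and 5 from retinas taken at ZT21, chosen by the genotype and time of their labels alone. ZT is the number of hours since lights on, so that ZT21 fell 3 h before lights on and ZT1 fell 1 h after it. All 10 retinas came from male C57BL/6-Ins2Akita/J mice, heterozygous for Ins2Akita, an allele of the insulin 2 gene whose misfolded product damages the beta cells of the pancreas, and chosen as hyperglycemic (above 250 mg/dL). The animals were 4 months old and had been kept under 12 h of light and 12 h of dark from birth. At this age diabetes was established but overt retinopathy was not, which limits the retinas to an early stage of the disease. Each library held the total RNA of an individual retina, depleted of ribosomal RNA. Wild-type male littermates of the same age and light schedule gave the control libraries, 5 at ZT1 and 4 at ZT21. All mice were perfused with cold saline before the retinas were dissected, and those of the night, ZT21 included, were processed under dim red light, which is stated for no retina of the day. Time of day, light reaching the eye before death and the light used for dissection therefore cannot be told apart here.

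Light changes the retina in several ways. Photoreceptors answer it by closing their channels, and the change is passed through bipolar and amacrine cells to the ganglion cells. Neurons whose activity or second messengers change switch on immediate early genes, mostly transcription factors that are copied within minutes without new protein synthesis. The retina also holds its own clock, a loop in which Arntl and Clock drive the Per and Cry genes that repress them, and dopamine, released in the light, acts through the D4 receptor of photoreceptors. Photoreceptors in darkness keep their channels open and spend much energy on ion pumping, and most of the glucose they take up is turned into lactate.

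From ZT21 to ZT1, 266 of 19120 genes tested were higher and 267 were lower in the diabetic retina at an adjusted p under 0.05 (edgeR's quasi-likelihood test, Benjamini-Hochberg adjustment over all genes), which is 1.39% and 1.4% of the genes tested. Genes called by this test are said here to have risen or fallen. Counts of called members of a gene list are to be read against these shares, and a list with 1 called gene is near them. Fold changes are log2 values with their SE, and where leaving out 1 library ended a call, the largest adjusted p that this gave is added. The risen genes included immediate early genes, factors that build ribosomes and genes of DNA replication and recombination. Among the fallen were the dopamine receptor Drd4, the hexokinase Hk2, the interferon regulator Irf7, the bipolar cell factor Vsx1 and markers of the retinal pigment epithelium. Most changes were small, with a median of 1.31-fold among the risen genes and 1.3-fold among the fallen, and 21 of the risen and 54 of the fallen genes changed by more than 1 on the log2 scale. The median log2 change over all genes tested was 0.01. The ZT1 and ZT21 libraries did not overlap for 198 (74.4%) of the risen and 196 (73.4%) of the fallen genes. Of all genes tested, 986 (5.16%) did not overlap. Lack of overlap is thus usual for a called gene and is no support beyond the call.

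The 10 libraries held between 10223817 and 22147398 reads counted on genes, and mitochondrial transcripts made up 1.14% to 1.88% of them. Rod markers were at a summed 38350.0 to 41500.0 CPM (reads of a gene scaled to its library's normalised depth, the scale of all levels given here) at ZT1 and 33840.0 to 43880.0 at ZT21, so that all libraries held retina. Ins2 itself had 5 reads over the ZT1 libraries and 16 over the ZT21 libraries, too few to check the genotype. The library of ZT1 replicate 3 stood apart by its lens transcripts (77.9 CPM over 15 markers, against 3.08 to 17.9 in the others of ZT1), and that of ZT1 replicate 5 by blood transcripts (13.2 CPM over 7 markers, against 0 to 1.92). Of the control libraries, ZT1 replicate 6 held 3375 CPM of the lens markers and ZT21 replicate 2 held 2600.0. Without either of these the test of a difference between genotypes called 0 genes by edgeR, as it did with both (405 and 421 genes at an unadjusted p under 0.05). Without ZT1 replicate 3, 157 genes rose and 190 fell, and without ZT1 replicate 5, 121 rose and 171 fell. The counts also fell by more than 1.5 times without ZT21 replicate 1 (136 and 153), ZT21 replicate 3 (155 and 161) and ZT21 replicate 4 (168 risen genes). Whether reads were counted by strand is not given, so that the reads of a gene and of one that overlaps it cannot be told apart. Of the genes given here, the annotation has a gene on the opposite strand over 1700016P03Rik, Arntl, Bdnf, Bhlhe40, Blm, Ciart, Cobl, Csrnp1, Dbp, Dip2b, Enpp2, Foxo1, Gnb5, Heatr1, Hk2, Imp4, Irf7, Junb and Kcnj6. The same holds for Lrat, Mbp, Mcm7, Nle1, Nr1d1, Opn1sw, Pdc, Pfkfb3, Rbm3, Slc16a8, Stc1, Stra6, Taf1c, Thbs1, Thrb, Txnip, Wwc2 and Zdhhc5. A gene on the same strand alone lies over Ctbp2, Glt28d2, Mir212, Mirg, Papolb, Per3, Ppan, Rdh5, Rdm1, Rpa1 and Snhg11.

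Of 43 genes on the list of immediate early genes, 40 were tested, 11 rose and none fell, or 27.5% against 1.39% of all genes tested. At an unadjusted p under 0.05, 2 were lower, and none was lower by DESeq2. Of the 40, 33 were fitted above 0 and 7 below it, and their median log2 change was 0.28, against 0.01 over all genes. Leaving out single libraries left 8 to 11 risen members.

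The steepest riser on the list was Nr4a3, an orphan nuclear receptor gene at 4:48045153-48086447 (GRCm38, plus strand). Its level was 1.89, 1.28, 2.37, 1.45 and 1.52 CPM in the ZT21 libraries and 10.7, 7.97, 9.01, 13.2 and 12.8 CPM in the ZT1 libraries, in the order of replicates 1 to 5. Every ZT1 library lay above every ZT21 library, a rise of 2.67 ± 0.35 on the log2 scale (SE, n = 5 and 5, adjusted p = 3.85e-06). Egr3, a zinc finger factor at 14:70077203-70082614, went from 0.767, 1.09, 1.56, 0.907 and 0.565 CPM at ZT21 to 3.71, 2.02, 2.87, 4.11 and 8.54 CPM at ZT1. The groups did not overlap (log2 2.15 ± 0.31, adjusted p = 1.69e-05), with the highest level in ZT1 replicate 5. For Npas4, a factor that neurons copy upon calcium influx (19:4984355-4990316, minus strand), the 5 libraries of ZT21 held 1.83, 2.62, 3.37, 2.18 and 1.98 CPM and those of ZT1 held 5.78, 6.44, 5.98, 6.65 and 7.90 CPM, again without overlap (log2 1.46 ± 0.23, adjusted p = 6.24e-05). Egr4 rose at a low level, from a range of 0.318 to 0.999 CPM to a range of 0.769 to 2.38 CPM, and its lowest ZT1 library fell within the range of ZT21 (log2 1.68 ± 0.36, adjusted p = 0.00355, or 0.161 with counts thinned to the smallest library).

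Fosl2, a subunit of the AP-1 factor, was at 9.80, 6.58, 8.24, 8.48 and 7.28 CPM at ZT21 and at 21.6, 15.5, 12.4, 15.9 and 19.6 CPM at ZT1 (log2 1.07 ± 0.19, adjusted p = 0.0003). Bdnf, which encodes a neurotrophin, went from 7.73, 7.02, 7.80, 7.58 and 5.81 CPM at ZT21 to 13.1, 12.6, 14.8, 12 and 14 CPM at ZT1 (log2 0.89 ± 0.17, adjusted p = 0.00123). Neither gene's groups overlapped. The remaining risen members were regulators that damp or shape such responses: Dusp4, a phosphatase of MAP kinases (log2 0.78 ± 0.17, adjusted p = 0.00359), Sik1, a kinase induced by cyclic AMP (log2 0.77 ± 0.22, adjusted p = 0.0348, or 0.0799 without ZT21 replicate 2), Btg2, an antiproliferative factor (log2 0.47 ± 0.08, adjusted p = 0.000254), and the nuclear factors Klf4 (log2 0.74 ± 0.22, adjusted p = 0.0476, or 0.117 without ZT21 replicate 2) and Csrnp1 (log2 0.59 ± 0.17, adjusted p = 0.0383, or 0.111 without ZT1 replicate 1). Btg2 was at 88.5, 77.7, 79, 91 and 90.9 CPM at ZT21 and 123, 118, 105, 99 and 145 CPM at ZT1, which did not overlap.

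Fos, Egr1, Nr4a1 and Junb, among the best known members of the family, were not called. Fos was at 24.9, 16.6, 21.7, 21.9 and 10.9 CPM at ZT21 and 23.9, 20.2, 33.3, 34 and 33.7 CPM at ZT1, and the groups overlapped (log2 0.60 ± 0.37, adjusted p = 0.461). Egr1 was at 23.7, 18.3, 26.8, 19.1 and 10.3 CPM at ZT21 and 35.9, 29.3, 65.5, 89.2 and 97.2 CPM at ZT1. Every ZT1 library lay above every ZT21 library for Egr1, but the spread between libraries of the series was wide (log2 1.70 ± 0.61, adjusted p = 0.121), and with only the 10 libraries in the fit the adjusted p was 0.00486. Nr4a1 (log2 0.41 ± 0.26, adjusted p = 0.476) and Junb (log2 0.47 ± 0.20, adjusted p = 0.2) were also short of the threshold, and the groups of both overlapped. Junb passed with offsets for GC content and length (adjusted p = 0.0318). The plot of immediate early genes shows all 11 risen members and these 4.

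**Figure D1:**
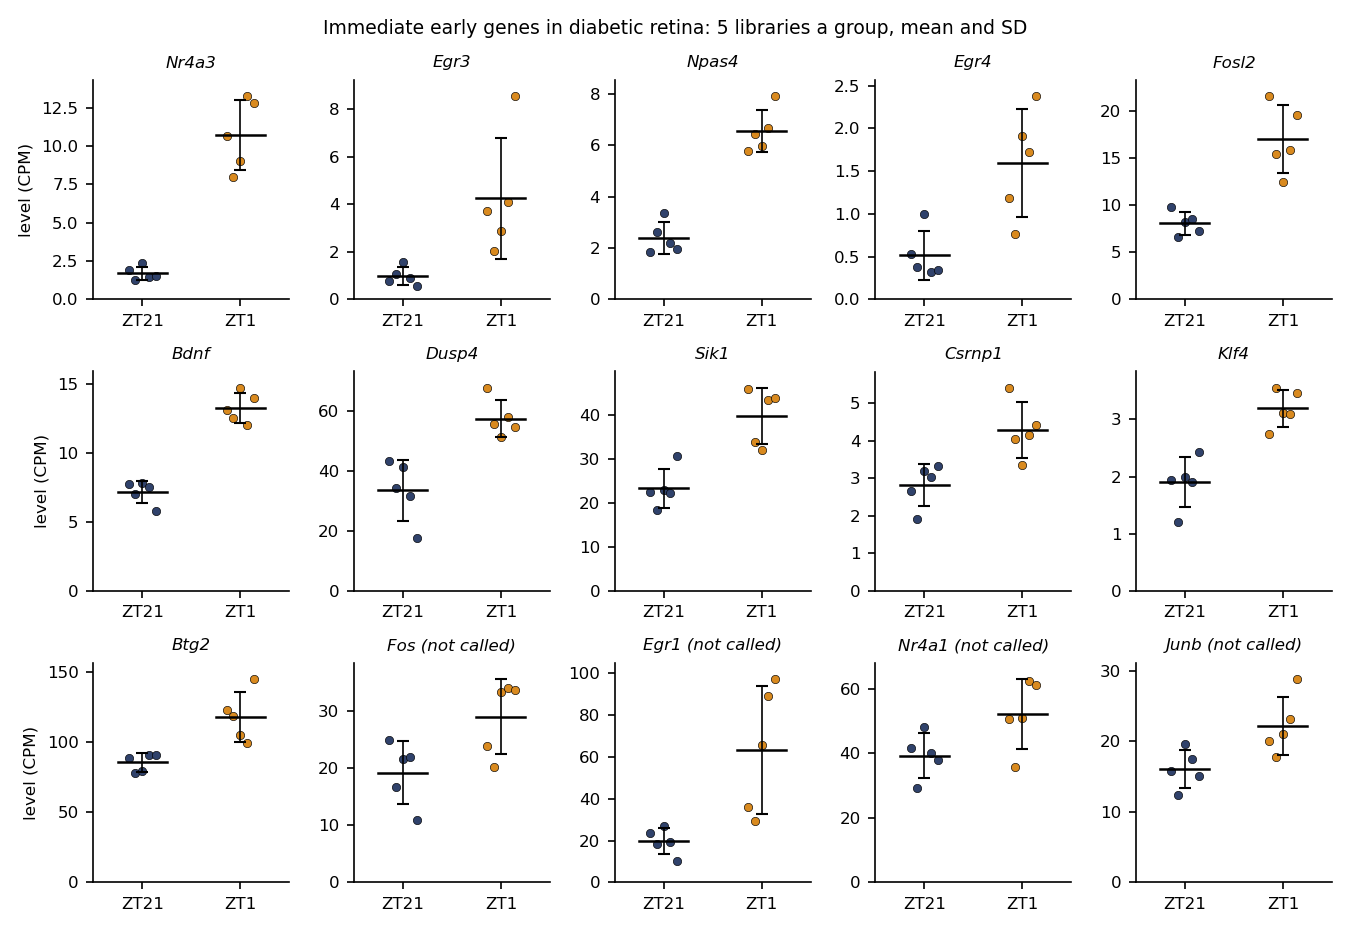
Level in CPM (linear axis from 0) of 15 immediate early genes in diabetic retinas at ZT21 and ZT1, with 1 point per library, the mean as a bar and the SD as whiskers (5 libraries a group). The 5 ZT1 libraries of Nr4a3 lie between 7.97 and 13.2 CPM, all above the ZT21 libraries, whereas the points of Fos, Nr4a1 and Junb overlap between groups.

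The transcript that carries the miRNAs miR-212 and miR-132 rose as well, a locus known to be switched on by CREB in active neurons. It was singled out after its values were seen. The non-coding host 1700016P03Rik (11:75172560-75177633, plus strand, where Ovca2 lies on the other strand) went from 0.885, 0.638, 0.936, 1.13 and 0.621 CPM at ZT21 to 3.41, 1.83, 3.59, 3.96 and 4.62 CPM at ZT1 with no overlap (log2 2.04 ± 0.31, adjusted p = 3.32e-05). Reads counted on the Mir212 hairpin itself were few, 13 over the ZT21 libraries and 72 over the ZT1 libraries, and rose too (log2 2.68 ± 0.42, adjusted p = 5.85e-05). These are reads of the precursor, which shares its place and strand with the host, and the mature miRNAs were not measured. Mir132, with 6 and 16 reads, did not pass the filter on low counts. The mature sequences are given 5′ to 3′ because the 3p arms share a seed, bases 2 to 8, set in capitals (RefSeq, GRCm38.p6).
miR-212-3p: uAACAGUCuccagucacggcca
miR-132-3p: uAACAGUCuacagccauggucg
miR-212-5p: aCCUUGGCucuagacugcuuacu
miR-132-5p: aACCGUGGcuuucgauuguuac

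Promoters of the risen immediate early genes were searched on both strands, from 250 bases before to 50 bases after the RefSeq start, for the cyclic AMP response element (CRE, TGACGTCA), the E-box (CACGTG) and the D-box (TTATGTAA). RefSeq promoters were matched for 8 of the 11 genes, under 80% of them, so that the counts below are a description and the check of the set is void. Of the 8, Btg2 held a CRE, starting 166 bases before its start, Klf4 held an E-box, starting 182 bases before its start, and none held a D-box. Of the 11936 promoters matched to genes tested, 3.49% held a CRE, 11.2% an E-box and 0.754% a D-box, and of all 32851 RefSeq promoters of this length 1.79%, 7.15% and 0.938% did. The core of the CRE alone (TGACG), also searched, stood in 7 of the 8. Promoters of genes tested held it in 33.6% of cases and all promoters in 20.8%. The serum response element, searched as a single fixed sequence, the ROR element (TAGGTCA) and the heat shock element were in none of the 8. Promoters of genes tested held these in 0.0335%, 2.21% and 0.561% of cases. With shares this small, none among 8 does not show that these genes lack such elements. The stretches around both matches are shown with the motif in capitals, each 5′ to 3′ on the gene's strand, Btg2 from chr1:134079254-134079381 and Klf4 from chr4:55532590-55532717, both on the minus strand of GRCm38.p6.
Btg2: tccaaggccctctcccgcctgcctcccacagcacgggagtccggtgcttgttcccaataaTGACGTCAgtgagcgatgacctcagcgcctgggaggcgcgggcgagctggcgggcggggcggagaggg
Klf4: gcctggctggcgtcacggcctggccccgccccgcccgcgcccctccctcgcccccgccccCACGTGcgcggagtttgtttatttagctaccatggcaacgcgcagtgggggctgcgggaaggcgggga

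A list of 117 ribosome biogenesis factors was drawn up after the calls had been seen, so that its count is a description. Of these, 116 were tested, 29 rose and none fell, or 25% against 1.39% of all genes tested. At an unadjusted p under 0.05, 68 were higher and 1 was lower, and DESeq2 called 37 higher and none lower. The median log2 change was 0.2, in a range from -0.15 to 0.58, and 109 of the 116 were fitted above 0. With counts thinned to the smallest library 16 members rose. Imp4, of the U3 particle that cuts the precursor of ribosomal RNA, was at 27.4, 26.9, 26.8, 27.1 and 26.7 CPM at ZT21 and at 34.7, 35, 34.7, 34.4 and 33.9 CPM at ZT1. The groups were tight and did not overlap, at a mean of 27 ± 0.298 CPM (SD, n = 5) against 34.5 ± 0.428 CPM (log2 0.36 ± 0.06, adjusted p = 5.85e-05). With thinned counts the change of Imp4 was 0.19, adjusted p = 0.31.

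Diexf, another factor of the small subunit, went from 18.8, 21.4, 19, 20.6 and 19.5 CPM at ZT21 to 25, 26.9, 29.7, 26.4 and 26.4 CPM at ZT1 (log2 0.44 ± 0.07, adjusted p = 4.44e-05). Nle1, which acts in the maturation of the large subunit, went from a range of 8.92 to 11 CPM to a range of 11.5 to 16.3 CPM (log2 0.58 ± 0.09, adjusted p = 7.39e-05), and Ppan, a further large subunit factor, from a range of 13.8 to 16.2 CPM to a range of 20.6 to 24.1 CPM (log2 0.49 ± 0.08, adjusted p = 0.000147). None of these groups overlapped. Components of RNA polymerase I and its initiation factors were among the risen, namely Polr1b (log2 0.38 ± 0.08, adjusted p = 0.00232), Taf1a (log2 0.34 ± 0.08, adjusted p = 0.00519) and Taf1c (log2 0.38 ± 0.11, adjusted p = 0.0356, or 0.134 without ZT21 replicate 1). The processing factors Heatr1 (log2 0.45 ± 0.08, adjusted p = 0.000697), Ftsj3 (log2 0.45 ± 0.08, adjusted p = 0.000715) and Nat10 (log2 0.36 ± 0.07, adjusted p = 0.002) rose by similar amounts. Genes of the ribosomal proteins themselves were not called: of 78 cytosolic ribosomal protein genes tested none was called (1 higher and none lower at an unadjusted p under 0.05, none by DESeq2), and their median was -0.06.

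Genes of DNA replication and homologous recombination were the other group of risen genes that was drawn up after the calls were seen. Of 88 listed, 77 were tested, 17 rose and 1 fell, or 22.1% against 1.39% and 1.3% against 1.4% of all genes tested. Their median was 0.2. Polq, a polymerase that joins broken ends, went from 4.37, 5.88, 5.87, 3.86 and 4.74 CPM at ZT21 to 6.23, 8.55, 7.66, 8.68 and 9.51 CPM at ZT1, with no overlap (log2 0.73 ± 0.15, adjusted p = 0.002). Subunits of the replicative helicase rose from low levels, with Mcm3 at 0.999 to 1.53 CPM and then 1.73 to 2.89 CPM (log2 0.87 ± 0.19, adjusted p = 0.00309), Mcm5 at 1.86 to 3.51 CPM and then 3.79 to 5.86 CPM (log2 0.68 ± 0.18, adjusted p = 0.0237, or 0.0899 without ZT1 replicate 1), and Mcm7 at 11.9 to 14.2 CPM and then 14 to 16.8 CPM (log2 0.29 ± 0.08, adjusted p = 0.0366, or 0.078 without ZT1 replicate 1). The repair genes Brca1 (log2 0.43 ± 0.10, adjusted p = 0.0111, or 0.12 without ZT1 replicate 5) and Blm (log2 0.42 ± 0.10, adjusted p = 0.0118, or 0.0726 without ZT1 replicate 5) rose, and Rpa1, which coats single-stranded DNA, fell (log2 -0.25 ± 0.07, adjusted p = 0.0241, or 0.128 without ZT1 replicate 5). This count leaned on the processing and on single libraries: 3 of 75 members tested rose with thinned counts, 8 without a filter on low counts and 10 with only the 10 libraries in the fit. Likewise, 7 members rose without ZT1 replicate 5, 9 without ZT21 replicate 4, and 11 without ZT21 replicate 1 or ZT21 replicate 3.

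**Figure D2:**
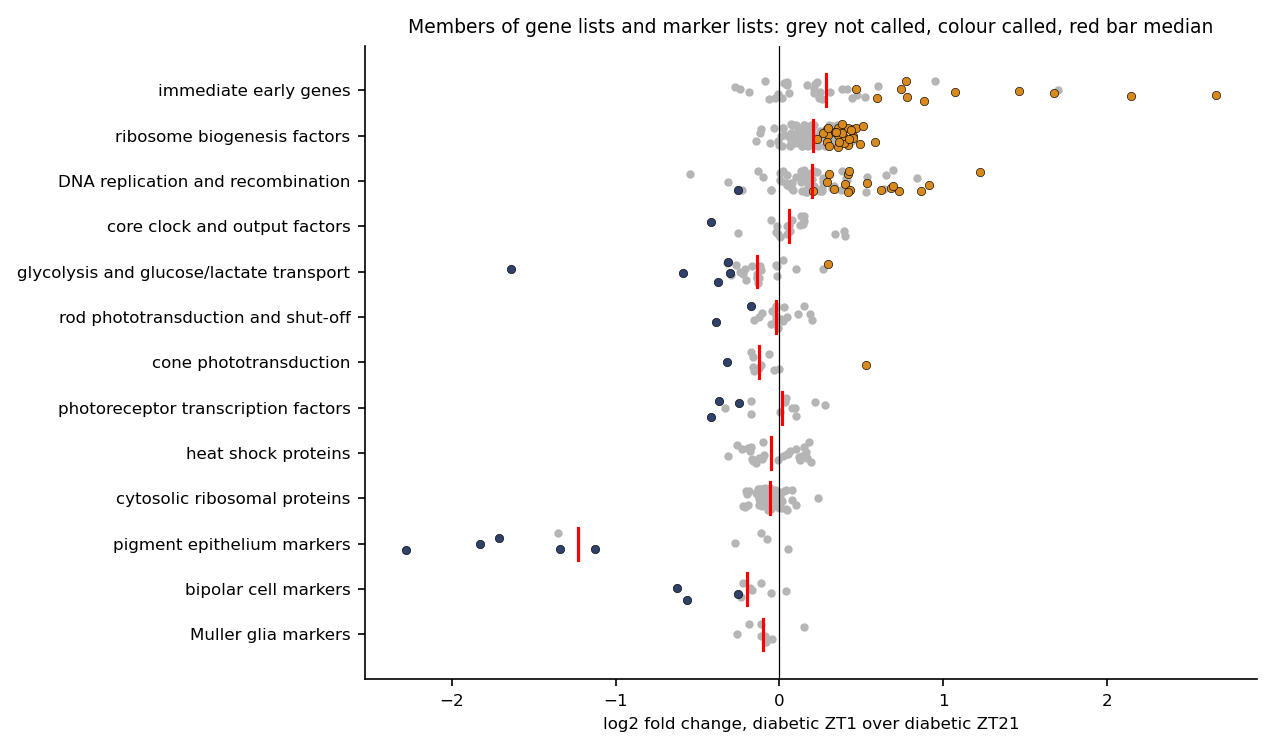
Log2 fold change of ZT1 over ZT21 in diabetic retina for each tested member of 13 gene and marker lists (1 point per gene, spread vertically for legibility), with genes past the adjusted p threshold in colour, the rest in grey, and the median of each list as a red bar. Immediate early genes reach to 2.67, ribosome biogenesis factors sit close around a median of 0.2, and pigment epithelium markers have a median of -1.23.

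Other genes named among the smallest adjusted p were Stc1, which encodes the secreted glycoprotein stanniocalcin 1, and Arr3, the cone arrestin that shuts off cone opsins. Stc1 (14:69029238-69041804, plus strand, overlapped by Gm41192 on the other strand) was at 6.32, 7.21, 6.24, 6.31 and 7.17 CPM at ZT21 and 15.7, 11.2, 13, 16.4 and 14.2 CPM at ZT1 (log2 1.09 ± 0.16, adjusted p = 2.7e-05), so that the lowest ZT1 library stood well above the highest ZT21 library. The gene BC027072 went from a range of 278 to 339 CPM to a range of 434 to 530.4 CPM (log2 0.63 ± 0.09, adjusted p = 3.32e-05) and the poly(A) polymerase gene Papolb from a range of 3.93 to 6.64 CPM to a range of 8.75 to 11.1 CPM (log2 0.81 ± 0.15, adjusted p = 0.000397). Of 14 abundant long non-coding RNAs tested 2 rose, or 14.3% against 1.39% of all genes tested, namely Snhg11 (log2 0.42 ± 0.10, adjusted p = 0.0138, or 0.0603 without ZT1 replicate 3) and Mirg (log2 0.50 ± 0.13, adjusted p = 0.0214, or 0.0826 without ZT21 replicate 4), and none fell, with no member lower at an unadjusted p under 0.05 or by DESeq2. Of 33 splicing factors and CLK kinases, Hnrnpdl alone rose, or 3.03% against 1.39% (log2 0.24 ± 0.06, adjusted p = 0.0243, or 0.0857 without ZT21 replicate 3) while none fell by edgeR, at an unadjusted p under 0.05 or by DESeq2.

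Of 20 core clock genes tested, none rose by edgeR against 1.39% of all genes (4 were higher at an unadjusted p under 0.05, none by DESeq2), and 1 fell, Rorb, or 5% against 1.4%. DESeq2 called 2 lower. Rorb, an orphan nuclear receptor that also guides photoreceptor development, was at 1008, 976, 889, 870.5 and 874 CPM at ZT21 and 690.0, 686, 725, 657 and 703 CPM at ZT1, with no overlap (log2 -0.42 ± 0.10, adjusted p = 0.00734). Per1, the period gene most open to light, was at 115, 97.4, 141, 118 and 119 CPM at ZT21 and 163, 139, 138, 175 and 164 CPM at ZT1. Only ZT21 replicate 3 reached into the range of ZT1, and the change of Per1 did not pass (log2 0.40 ± 0.15, adjusted p = 0.144), though it did with only the 10 libraries in the fit (adjusted p = 0.0268) and with offsets for GC content and length (adjusted p = 0.0065). Bhlhe40, a repressor that light induces in other clock tissues, had ranges of 41.2 to 51.2 CPM and 55.3 to 65.2 CPM that did not overlap and missed the threshold as well (log2 0.34 ± 0.11, adjusted p = 0.0627), but not with only the 10 libraries (adjusted p = 0.0165) or with these offsets (adjusted p = 0.0426).

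Apart from Ciart, the other clock genes named lay closer to 0. Per2 (log2 0.13 ± 0.13, adjusted p = 0.684) and Per3 (log2 0.12 ± 0.08, adjusted p = 0.516) were not called. The same held for the activator Arntl (log2 0.07 ± 0.07, adjusted p = 0.716) and the repressor Cry1 (log2 0.08 ± 0.08, adjusted p = 0.703). Of the stabilising loop and the output factors, Nr1d1 (log2 0.15 ± 0.14, adjusted p = 0.698), Nr1d2 (log2 0 ± 0.11, adjusted p = 1), Dbp (log2 0.15 ± 0.11, adjusted p = 0.588) and Ciart (log2 0.40 ± 0.15, adjusted p = 0.149) did not pass. The cold-inducible RNA-binding protein genes Cirbp (log2 -0.05 ± 0.08, adjusted p = 0.851) and Rbm3 (log2 0.28 ± 0.09, adjusted p = 0.0715) did not either.

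Drd4, the D4 dopamine receptor of photoreceptors and a known output of the retinal clock, fell. At 7:141292006-141296464 (plus strand), it was at 278, 235, 304, 279.8 and 311 CPM at ZT21 and 159, 124, 169, 195 and 157 CPM at ZT1, a fall without overlap (log2 -0.81 ± 0.13, adjusted p = 9.5e-05). Of the 6 genes listed as controlled by the retinal clock, Plekhb1 also fell (log2 -0.41 ± 0.09, adjusted p = 0.00265) and the others did not pass, so that 33.3% of this short list fell against 1.4% of all genes tested. Of 23 genes of dopamine, cyclic AMP and melatonin, edgeR called Drd4 alone, 4.35% against 1.4%, while DESeq2 called 3 lower and 8 were lower at an unadjusted p under 0.05. The list's median was -0.14. Th, which makes dopamine, was at 1.98 to 2.75 CPM at ZT21 and 1.52 to 2.64 CPM at ZT1 (log2 -0.14 ± 0.23, adjusted p = 0.838). Aanat, of melatonin synthesis, was too low to be tested (0.125 to 0.447 CPM and 0.0642 to 0.355 CPM).

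Most glycolysis genes were fitted lower. Of 27 members tested, 5 fell and 1 rose, 18.5% against 1.4% of all genes tested for the falls, and 23 were fitted below 0, with a median of -0.14. Hk2, the hexokinase of photoreceptors (6:82725025-82774454, minus strand), was at 1030.0, 748, 959, 1020.0 and 776 CPM at ZT21 and at 601, 583, 612, 586 and 630.0 CPM at ZT1. The ZT1 libraries were close to each other and all lay below ZT21 (log2 -0.59 ± 0.10, adjusted p = 9.51e-05). The enzymes Pgk1 (log2 -0.37 ± 0.11, adjusted p = 0.0383, or 0.166 without ZT21 replicate 1), Pgam1 (log2 -0.31 ± 0.08, adjusted p = 0.0181, or 0.0903 without ZT1 replicate 5) and Pfkl (log2 -0.31 ± 0.08, adjusted p = 0.0232, or 0.12 without ZT21 replicate 1) fell by less. Slc16a8, a lactate carrier of the pigment epithelium, went from a range of 5.25 to 7.89 CPM to a range of 1.41 to 3.75 CPM (log2 -1.64 ± 0.32, adjusted p = 0.000952). Pfkfb3, whose product drives glycolysis by making fructose 2,6-bisphosphate, rose from 45.3, 45.2, 41.6, 46.5 and 51.4 CPM at ZT21 to 61.5, 56.1, 54.4, 56.4 and 54.7 CPM at ZT1 (log2 0.30 ± 0.09, adjusted p = 0.0458, or 0.101 without ZT1 replicate 1). With offsets for GC content and length 9 members fell, and between 2 and 7 fell when single libraries were left out, with 2 without ZT1 replicate 4, ZT1 replicate 5 or ZT21 replicate 1.

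Of the other metabolic lists, fatty acid oxidation had 1 gene called each way among 21 tested, 4.76% against 1.39% of all genes higher and 1.4% lower, and the risen one was Acadm, the medium-chain dehydrogenase (log2 0.28 ± 0.07, adjusted p = 0.0203, or 0.0934 without ZT1 replicate 2). The antioxidant list held Gclc, of glutathione synthesis, which rose (log2 0.24 ± 0.05, adjusted p = 0.0076, or 0.107 without a filter on low counts and 0.308 with thinned counts), and Nqo1, a quinone reductase, which fell (log2 -0.62 ± 0.18, adjusted p = 0.0477, or 0.138 without ZT1 replicate 4), among 14 tested, or 7.14% each way. Of 27 genes of insulin and FOXO signalling, Foxo1 (log2 -0.22 ± 0.06, adjusted p = 0.0229, or 0.0802 without ZT1 replicate 2) and the receptor gene Igf1r (log2 -0.19 ± 0.05, adjusted p = 0.0356, or 0.0877 without ZT1 replicate 3) fell, 7.41% against 1.4%, and none rose by edgeR or DESeq2, with 1 higher at an unadjusted p under 0.05.

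Among photoreceptor lists, 9.09% of cone genes, 9.52% of rod genes, 21.4% of transcription factors, 6.25% of ribbon synapse genes and 20% of visual cycle genes fell, against 1.4% of all genes tested. Of 11 cone phototransduction genes, Arr3 rose from 126, 123, 103, 105 and 109 CPM at ZT21 to 142, 162, 161, 154 and 196 CPM at ZT1 with no overlap (log2 0.53 ± 0.10, adjusted p = 0.000619), and Opn1sw, the short-wave cone opsin, fell from 417, 353, 416, 412 and 451 CPM at ZT21 to 384, 315, 310.0, 289 and 346 CPM at ZT1 with overlap (log2 -0.32 ± 0.09, adjusted p = 0.0432, or 0.132 without ZT1 replicate 4). Of 21 rod genes, Pdc, which binds transducin subunits, went from a range of 1337 to 1666 CPM to a range of 1069 to 1247 CPM (log2 -0.39 ± 0.09, adjusted p = 0.00417, or -0.53 and 0.0754 with offsets for GC content and length) and Gnb5, of the complex that ends the light response, fell slightly (log2 -0.17 ± 0.05, adjusted p = 0.0383, or 0.15 without ZT1 replicate 4). Of 14 transcription factors of photoreceptors, Rorb, Thrb, which sets cone opsin choice (log2 -0.25 ± 0.05, adjusted p = 0.00232), and Esrrb, of rod survival (log2 -0.37 ± 0.10, adjusted p = 0.02, or 0.0862 without ZT21 replicate 3), fell. Ctbp2, whose locus also encodes the ribbon protein RIBEYE, was the only 1 of 16 ribbon synapse genes to pass (log2 -0.24 ± 0.06, adjusted p = 0.0204, or 0.0815 without ZT21 replicate 3). Rdh10 (log2 -0.42 ± 0.08, adjusted p = 0.00167) and Stra6 (log2 -1 ± 0.20, adjusted p = 0.00177), which handle retinoids, fell among 10 genes of the visual cycle. Markers of the pigment epithelium were also lower at ZT1, with summed levels of 195 to 302 CPM at ZT21 and 63.6 to 112 CPM at ZT1, and their part in these falls was not tested.

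Of 10 bipolar cell markers tested 3 fell, or 30% against 1.4% of all genes tested, 9 were fitted below 0 and the median was -0.2. Vsx1, a homeobox factor of cone bipolar cells, was at 33.6, 33.2, 34.6, 30.4 and 28 CPM at ZT21 and 22.3, 21.9, 23.1, 22.1 and 18.8 CPM at ZT1, without overlap (log2 -0.56 ± 0.10, adjusted p = 0.000304). Cabp5, a calcium-binding protein of bipolar cells and the only 1 of 12 genes of ON bipolar signalling to pass, fell less (log2 -0.25 ± 0.06, adjusted p = 0.0134, or 0.0685 without ZT1 replicate 5). Their summed markers were at 1887 to 2021 CPM at ZT21 and 1501 to 1849 CPM at ZT1, without overlap. In bulk retina, fewer cells of a type and less RNA per cell cannot be told apart.

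Markers of the retinal pigment epithelium, a layer outside the neural retina that can stay attached to it at dissection, had a median log2 change of -1.23. Of 10 tested, 5 fell, or 50% against 1.4% of all genes tested, and none rose (none was higher at an unadjusted p under 0.05 or by DESeq2). Rpe65, the retinoid isomerase of that layer, was at 36.6, 43.7, 29.2, 36 and 26.8 CPM at ZT21 and 6.30, 11.4, 7.42, 6.75 and 4.17 CPM at ZT1 (log2 -2.28 ± 0.37, adjusted p = 7.39e-05). Ttr, a carrier of thyroid hormone and retinol, went from a range of 60.1 to 94.8 CPM to a range of 16.1 to 28.8 CPM (log2 -1.83 ± 0.32, adjusted p = 0.000249) and Rgr, an opsin of that layer, from a range of 78.5 to 96.5 CPM to a range of 18.6 to 39 CPM (log2 -1.71 ± 0.30, adjusted p = 0.000226), while Rdh5 and Lrat, both of the visual cycle, fell by 1.13 and 1.34 on the log2 scale. Of the 10 tested, 9 were fitted below 0 and 6 were lower at an unadjusted p under 0.05, but not every marker fell. Dct was at a mean of 12.2 ± 8.35 CPM at ZT21 and 10.4 ± 5.02 CPM at ZT1 (SD, n = 5 and 5). Pmel was at 3.06 ± 3.03 and 3.36 ± 2.76 CPM, and Best1 at 0.703 ± 0.234 and 0.662 ± 0.377 CPM. The summed level of the 12 markers was 244, 241, 226, 302 and 195 CPM at ZT21 and 68.9, 112, 98.8, 82.3 and 63.6 CPM at ZT1. Its ranges did not overlap, and none of the 12 was without reads in all 10 libraries.

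Several of the genes with the smallest adjusted p among the fallen moved beside this sum, and its part in their changes was not tested. Cdh3, the P-cadherin gene, was at 7.61, 7.41, 7.05, 12.9 and 7.28 CPM at ZT21 and 1.56, 2.79, 2.55, 3.45 and 1.86 CPM at ZT1 (log2 -1.78 ± 0.24, adjusted p = 5.81e-06). Col8a2, of collagen VIII, was at 20.2, 17.4, 14, 17.5 and 14.1 CPM and then 4.75, 5.38, 4.07, 4.97 and 2.38 CPM (log2 -1.96 ± 0.31, adjusted p = 5.24e-05), and Thbs1, the matrix protein thrombospondin 1, at 25.7 to 31.9 CPM and then 7.51 to 12.4 CPM (log2 -1.47 ± 0.24, adjusted p = 9.51e-05). Enpp2, which encodes autotaxin, an enzyme that makes lysophosphatidic acid, was at 86.5, 99.7, 91.5, 86.7 and 83.8 CPM and then 52.1, 58.7, 51.5, 48.2 and 37.4 CPM (log2 -0.86 ± 0.11, adjusted p = 2.56e-06). In all 4 the groups were apart. Slc16a8, Stra6 and Met, a growth factor receptor gene (log2 -0.78 ± 0.15, adjusted p = 0.000853) and the only 1 of 19 vessel genes to pass, fell alongside.

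**Figure D3:**
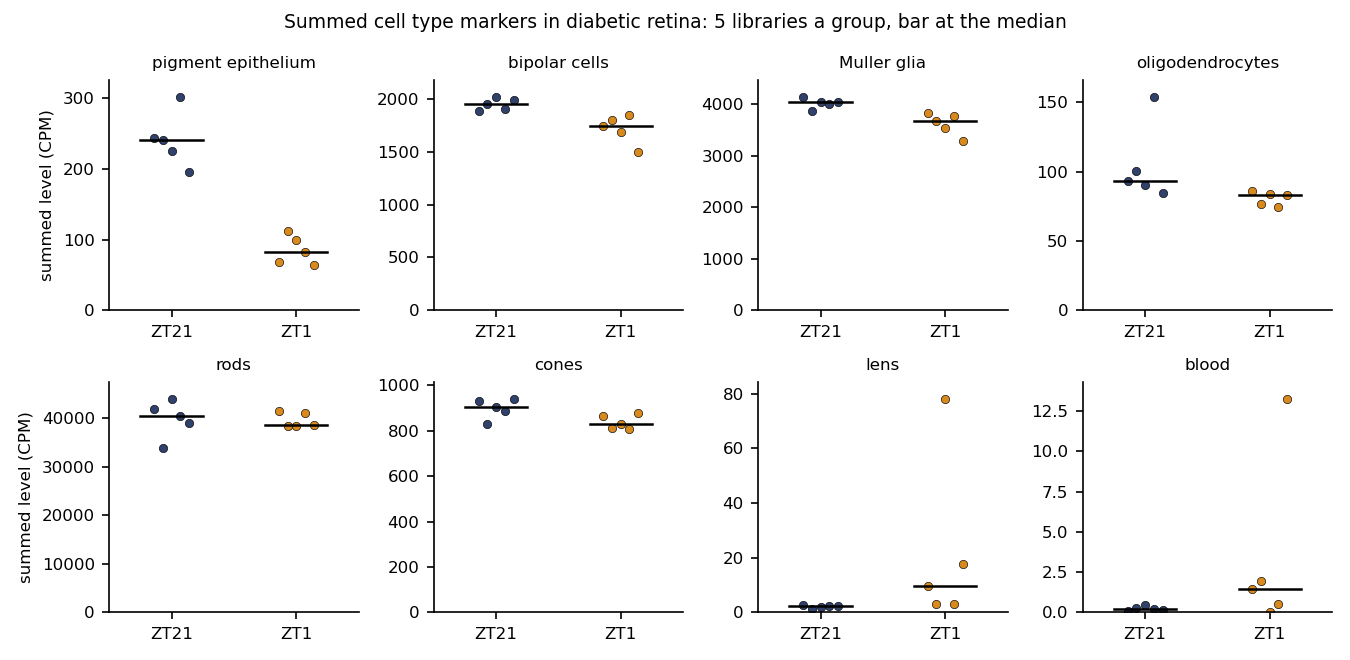
Summed level in CPM (linear axis from 0) of the markers of 8 cell types in diabetic retinas at ZT21 and ZT1, with 1 point per library and a bar at the median (5 libraries a group). Pigment epithelium markers sit at 63.6 to 112 CPM at ZT1 and 195 to 302 CPM at ZT21, rods overlap, and single ZT1 libraries stand out in the lens and blood panels.

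Other marker lists held few called genes. Muller glia markers had a median of -0.1 with none of 8 called by edgeR (2 lower at an unadjusted p under 0.05, 1 by DESeq2), yet their sums, 3869 to 4138 CPM at ZT21 and 3281 to 3825 CPM at ZT1, were apart. Rod markers had a median of 0, and none of the 6 was called by edgeR or DESeq2 (1 was higher at an unadjusted p under 0.05). The markers of ganglion, amacrine and horizontal cells, microglia, and endothelium with pericytes had medians of -0.22, -0.13, -0.07, -0.23 and -0.11, with no member called by edgeR. At an unadjusted p under 0.05 these held 4, 1, 0, 1 and 1 lower members and, of the amacrine cell markers, 1 higher member, and DESeq2 called 1, of the vessel markers. Of 6 oligodendrocyte and optic nerve markers, Mbp, the myelin basic protein gene, fell (log2 -0.39 ± 0.08, adjusted p = 0.002), from 48.6, 49.1, 44, 69.6 and 41.1 CPM at ZT21 to 40.9, 38.4, 37.4, 36.4 and 40.5 CPM at ZT1, with ZT21 replicate 4 far above the others, and the sum of that list was also highest there (154 CPM, against 84.6 to 101 CPM in the rest of ZT21). Lens markers had 5 members tested, with a median of 1, and none was called by edgeR, DESeq2 or an unadjusted p under 0.05. Their sums, 1.21 to 2.89 CPM at ZT21 and 3.08 to 77.9 CPM at ZT1, did not overlap. Of the cornea list 2 members were tested, none called by any of these. No blood marker was high enough to test.

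Irf7, the regulator of type I interferon genes, was among the clearest falls (7:141262706-141266481, minus strand, where Phrf1 overlaps it on the other strand). It was at 55.1, 35, 48.3, 50.9 and 55.3 CPM at ZT21 and at 17, 12.8, 23, 21.3 and 22.9 CPM at ZT1, apart in every library (log2 -1.33 ± 0.18, adjusted p = 5.18e-06). It stood alone in its list, since none of the other 19 interferon response genes tested passed by edgeR or DESeq2 (3 were higher at an unadjusted p under 0.05) and the median of the 20 was 0.14. Wwc2 (log2 -0.29 ± 0.04, adjusted p = 1.23e-05), Zdhhc5, which encodes a palmitoyltransferase (log2 -0.51 ± 0.08, adjusted p = 4.8e-05), and Dip2b (log2 -0.36 ± 0.05, adjusted p = 1.29e-05) fell by small amounts in tight groups that did not overlap. Glt28d2, of a glycosyltransferase family, went from a range of 23.3 to 35.5 CPM to a range of 11 to 15.1 CPM (log2 -1.02 ± 0.16, adjusted p = 6.24e-05). Among 16 genes of reactive gliosis 1 fell, 6.25% against 1.4% of all genes tested, namely A2m, a protease inhibitor (log2 -0.76 ± 0.22, adjusted p = 0.043, or 0.187 without ZT21 replicate 4).

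In 17 of the 36 gene lists no member was called by edgeR, over 435 genes tested in total. These were heat shock proteins, glucocorticoid receptor targets, chaperones of the endoplasmic reticulum, ATF4 targets, complex I, complexes III to V, mitochondrial genome transcripts, ribosomal proteins, the proteasome, autophagy, hypoxia targets, cholesterol synthesis, fatty acid synthesis, the Txnip list, retinal neuropeptides, photoreceptor phagocytosis and the cold-inducible proteins. Their medians lay between -0.13 and 0.12. Some leaned to 1 side, as the glycolysis list did. Fitted below 0 were 35 of 37 genes of complexes III to V, 33 of 37 of complex I and 66 of 78 ribosomal protein genes. Fitted above 0 were 7 of 9 mitochondrial genome transcripts and 7 of 10 genes of the Txnip list. Of all 19120 genes tested, 9108 were fitted below 0. At an unadjusted p under 0.05, 11 of these members were higher and 34 lower, and DESeq2 called 1 higher and 6 lower. Txnip, which is induced by glucose, was at 5.55 to 11.4 CPM at ZT21 and 7.01 to 9.49 CPM at ZT1 (log2 -0.08 ± 0.16, adjusted p = 0.871). In simulated counts with the same libraries, 63% of genes changed 1.5-fold and 87% of those changed 2-fold were called. Each simulated gene had the spread typical of its level, and changes smaller than 1.5-fold were not simulated. The shares therefore do not hold for genes of wider spread or for changes as small as these medians.

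The other time points place both groups in the day, although ZT1 and ZT21 themselves had chosen the genes. Of the 266 risen genes, 171 (64.3%) had their highest diabetic mean at ZT1 and 67 (25.2%) at ZT9. Their lowest mean was at ZT17 or ZT21 in 241 (38% and 52.6%). Of the 267 fallen genes, 120 (44.9%) were lowest at ZT1 and 114 (42.7%) at ZT5, and 230 were highest at ZT17 or ZT21 (43.4% and 42.7%). Of all genes tested 17% were highest at ZT1, 17.4% at ZT9, 24% at ZT17 and 11.6% at ZT21 in diabetic retinas. Lowest there were 15.7% at ZT1, 11.8% at ZT5, 26.4% at ZT17 and 14.7% at ZT21. In control retinas, which had no part in the choice, 61 (22.9%) of the risen genes were highest at ZT1 and 154 (57.9%) at ZT9, against 11.4% and 16.1% of all genes. Of the fallen genes 97 (36.3%) were lowest at ZT1 in controls, 64 (24%) at ZT5 and 95 (35.6%) at ZT9. The shares of all genes were 12.3%, 17.2% and 13.3%. Nr4a3 was highest at ZT1, at a mean of 10.7 ± 2.30 CPM (SD, n = 5), and was at 4.97 ± 1.80 CPM at ZT5 and 4.62 ± 2.82 CPM at ZT9. In the control retina it was at 11 ± 2.12, 4.59 ± 2.40 and 10.4 ± 4.44 CPM at these times. Arr3 went on to 254 ± 17.2 CPM at ZT9, above its 163 ± 20 CPM at ZT1, and Drd4 was lowest at ZT5 at 134 ± 12.1 CPM. Irf7 was at 11.4 ± 1.42 CPM at ZT5 and at 58.8 ± 10.3 CPM at ZT17, its highest mean. Rpe65, at 7.22 ± 2.65 CPM at ZT1, was at 3.73 ± 1.19 CPM at ZT5, 23.5 ± 10.8 CPM at ZT9 and 34.4 ± 6.70 CPM at ZT21. Its level at ZT9, in the light phase, was thus between those of ZT1 and ZT21.

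**Figure D4:**
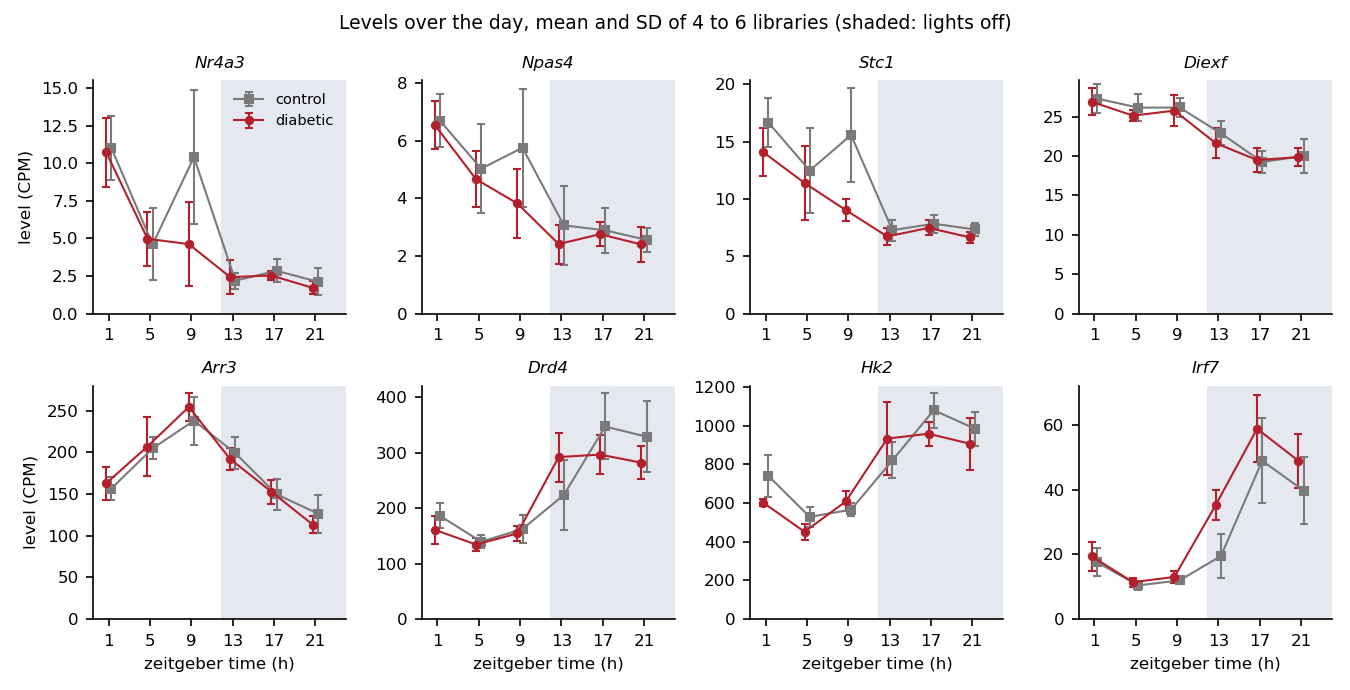
Level in CPM (linear axis from 0) of 8 genes against zeitgeber time in hours, as the mean and SD of 4 to 6 libraries per point, for diabetic (circles) and control retinas (squares), with the dark phase shaded. Nr4a3 and Npas4 are highest at ZT1 in both, and Drd4, Hk2 and Irf7 are higher in the shaded phase than at ZT5.

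Control retinas, which share no library with the diabetic groups, moved the same way at most of these genes. Of the 266 genes that rose in diabetic retinas, 248 (93.2%) were fitted above 0 in controls, against 48.8% of all genes tested, with a median log2 change of 0.2 against 0.39 in diabetic retinas. Of the 267 that fell, 265 (99.3%) were below 0 in controls, against 51.2% of all genes, with medians of -0.25 and -0.38. The diabetic medians are those of genes chosen for their change there, so that smaller control medians do not by themselves show a difference. In controls, 50 genes rose and 93 fell, 0.262% and 0.486% of the genes tested, over 5 and 4 libraries. Of these, 34 and 73 were called the same way in diabetic retinas, which is 68% and 78.5% of the control calls and 12.8% and 27.3% of the diabetic calls. Nr4a3 changed by 2.33 ± 0.37 in controls, Npas4 by 1.37 ± 0.25, Drd4 by -0.82 ± 0.14 and Irf7 by -1.18 ± 0.19, each called there too. Among immediate early genes, 10 of 40 rose in controls with a median of 0.37. Pigment epithelium markers fell there as well, 5 of 10, with a median of -1.03.

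**Figure D5:**
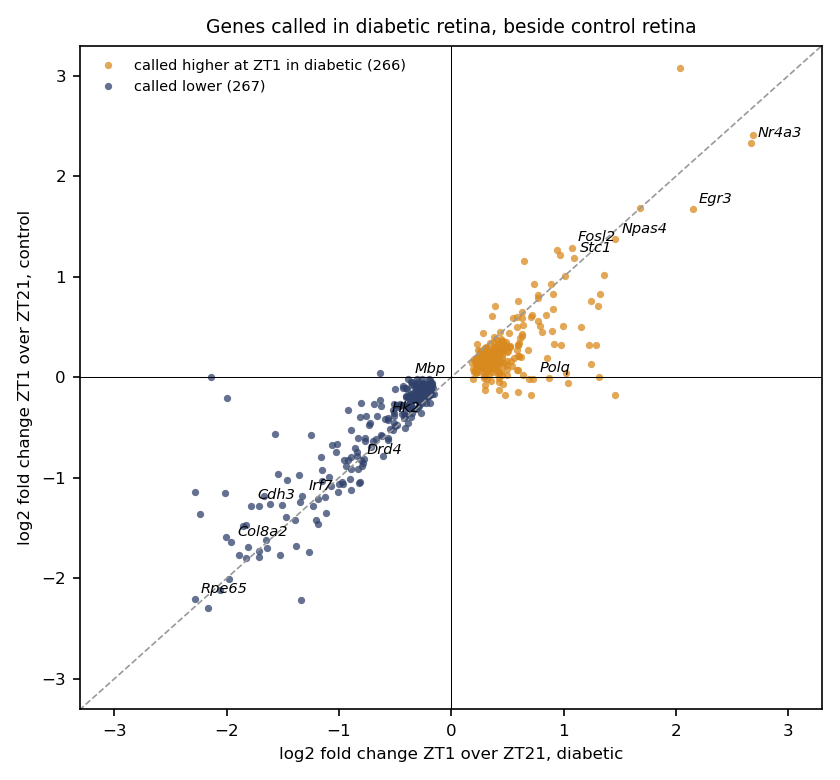
Log2 fold change of ZT1 over ZT21 in diabetic retina (horizontal axis) and in control retina (vertical axis) for the 266 risen and 267 fallen genes of the diabetic retina, with 1 point per gene and a dashed line of equal change. Of the risen genes 248 lie above 0 on the vertical axis, and of the fallen genes 265 lie below it.

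The difference between genotypes was tested as an interaction, the diabetic change minus the control change. No gene passed (0% of the genes tested, smallest adjusted p = 1), with 446 genes (2.33%) at an unadjusted p under 0.05, and DESeq2 called none either. The median SE of this difference was 0.19 on the log2 scale. Named here are the 5 genes with the smallest unadjusted p in each direction, called or not, at a mean of at least 50 counts (predicted genes left out). Those higher at ZT1 in the diabetic retina had log2 changes between -0.18 and -0.01 in controls: Topbp1, of the DNA damage response (difference 0.43 ± 0.11), Nln, a peptidase (0.65 ± 0.18), Aasdh (0.39 ± 0.11), Polq (0.74 ± 0.22) and Noa1 (0.37 ± 0.11). In the other direction were Cobl (-0.31 ± 0.10), Mbp (-0.37 ± 0.12), Rdm1 (-0.49 ± 0.16), Plat (-0.49 ± 0.16) and Kcnj6 (-0.34 ± 0.11). From ZT21 to ZT1, mean Plat went from 11.6 to 10.9 CPM in diabetic retinas and from 8.40 to 11 CPM in controls. Mean Kcnj6 went from 21.14 to 18.48 CPM in diabetic retinas and from 19.12 to 21.15 CPM in controls. None of these 10 passed adjustment over all genes. The replication and recombination genes, of which 17 rose in diabetic retinas, had a median of 0.07 and no call in controls (edgeR), and no member's difference passed.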

How the data were processed

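Retinal RNA of 58 mice was read as ribosome-depleted libraries. The authors deposited raw counts per gene symbol, made by alignment with STAR (2.7.4a) to GRCm38.p5 and by HTSeq (0.11.1) over Gencode M15 genes, neither normalized nor filtered; whether strand was used in counting is not given in the sources used here. Of 52459 symbols, 48082 were matched to Gencode M21 and 203 more by an older symbol, for coordinates, GC content and length. Samples were grouped by genotype and time from their titles. As in the study's methods, a gene was tested if its median over all libraries exceeded 4 normalized counts. Counts were fitted in 1 model of 12 groups with edgeR (4.0.16, R 4.3.3), TMM factors and the quasi-likelihood test, and the difference between genotypes was taken as a contrast of the same fit. DESeq2 (1.42.0) and limma (3.58.1) were run as alternatives, with other factors and filters, thinned counts, GC and length offsets, fewer libraries and a replicate block. CPM values use TMM factors. Figures were drawn in Python.

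The comparison, gene lists and markers were chosen with earlier results of these data known. Named were the 12 genes with the smallest adjusted p in each direction at a mean of at least 50 counts (predicted genes left out), up to 3 called members a list in each direction, and 19 tested clock and light-response genes whatever their p, with Aanat by level only. Other called genes were named after their values were seen. A few genes that this rule picks are not reported here. Depth was 10223817 to 22147398 reads, and the median SE of a log2 change was 0.13. In simulated counts for this comparison over 19120 genes, 63% of 100 genes changed 1.5-fold and 87% of 100 changed 2-fold were recovered, with 10 false calls. The simulated spread followed the trend with level and left out the extra spread of single genes. No pair of the 36 replicate pairs compared was as alike as sampling noise alone would make it (lowest chi-square per degree of freedom 2.67). Retinas of a group came from separate mice. Promoter and miRNA sequences came from RefSeq (GRCm38.p6).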

Additional observations from a re-analysis of the deposited data

Results flagged for a closer look

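In 136 combinations of a named gene and a diabetic group of 5 libraries, 4 held a library far from the others by Dixon's test, which chance alone would do in about 1 of 20. Pfkfb3 was at 61.53 CPM in ZT1 replicate 1 and between 54.4 and 56.35 CPM in the other ZT1 libraries. Cdh3 was at 12.89 CPM in ZT21 replicate 4, against 7.055 to 7.614 CPM. Glt28d2 was at 35.5 CPM in ZT21 replicate 2, against 23.31 to 26.62 CPM. Rbm3 was at 48.02 CPM in ZT1 replicate 4, against 58.38 to 60.27 CPM.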

How the results depend on the processing

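The main counts of 266 risen and 267 fallen genes moved with the choice of fit and with single libraries, while no called gene that is named changed direction. Leaving out single diabetic libraries gave 121 to 286 risen and 153 to 355 fallen genes. Without a filter on low counts 112 genes rose and 200 fell among 37233 tested, and with counts thinned to the smallest library 99 rose and 156 fell. DESeq2 called 349 higher and 408 lower, and offsets for GC content and length gave 500 and 499. Replicate numbers did not pair the samples: 3 of 5 same-numbered pairs correlated above 0.1, and 2 of the 5 ZT1 libraries correlated best with their own number. A replicate block over all libraries gave 393 and 369 calls, over the 10 libraries alone 511 and 482, and with the GC and length offsets 666 and 708. With the block over the 10 libraries Fos (adjusted p = 0.0231), Egr1 (0.000747), Nr4a1 (0.00794), Junb (0.0117), Per1 (0.00357), Bhlhe40 (0.00563) and Rbm3 (0.02) passed, none of which was called in the fit of all libraries without it. The cause of these shifts was not tested. The other scalings, filterByExpr, limma-voom and fits of fewer libraries stayed within 1.5 times the main counts. The interaction called 0 genes in each fit run by edgeR, DESeq2 or limma-voom, with 369 to 1009 genes at an unadjusted p under 0.05. Of the 81 called genes followed under the alternatives, 55 kept their call without each diabetic library in turn and 26 lost it without at least 1. Thinning ended 27 of the 81 calls (Imp4, Pfkfb3, Acadm, Gclc, Hnrnpdl, Gnb5, Cabp5, Foxo1, Igf1r, Nqo1, A2m, Egr4, Klf4, Csrnp1, Polr1b, Taf1a, Taf1c, Polq, Mcm3, Mcm5, Mcm7, Brca1, Blm, Rpa1, Pfkl, Rdh5 and Mbp). The absence of a filter ended 13 (Pfkfb3, Acadm, Gclc, Hnrnpdl, Gnb5, Foxo1, Igf1r, Nqo1, Klf4, Csrnp1, Taf1c, Mcm5 and Mcm7), and DESeq2 ended none. Fitting only the 10 libraries ended 12, namely Gnb5, Foxo1, Igf1r, Nqo1, Csrnp1, Taf1c, Mcm5, Mcm7, Brca1, Rpa1, Pfkl and Mbp, and fitting only the diabetic libraries ended 9. The depth leaves genes of few reads, such as Egr4 and Mir212, with wide errors.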
